A study of Mus musculus with 9 samples.

Results

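The 9 genes described here encode the Hedgehog pathway proteins Ihh, Ptch1, Hhip, Gas1, Smo, Sufu, Gli1, Gli2 and Gli3. They were taken by symbol from a bulk RNA-seq count table of 55450 gene identifiers, and all 9 were among the 19357 genes that passed a filter on low counts. The cells were EYFP+ mammary cells sorted from adult nulliparous female mice of 3 genotypes, with 3 libraries each. All mice carried K8CreERT2, a tamoxifen-inducible Cre recombinase expressed from the keratin 8 promoter of luminal cells, and lsl-EYFP, a reporter that Cre switches on. Control mice carried nothing further, LATS1/2-KO mice also carried LATS1/2f/f, floxed alleles of both Hippo pathway kinases, and LATS1/2-Sox9-KO mice carried these and Sox9f/f. All mice, controls included, received 2 mg of tamoxifen on 5 days, and cells were sorted 7 days after the last dose. EYFP marks cells in which Cre acted on the reporter, and does not itself show that every floxed allele was recombined. Nothing in the labels says that libraries came from separate mice, so p-values measure the spread between libraries, which may be partly technical. Total counts per library were 44167762 to 47003587 in control, 50508666 to 61745346 in LATS1/2-KO and 55503365 to 61967651 in LATS1/2-Sox9-KO.

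In whole-gene counts, the targeted genes only partly followed the labels. The paper states that its own RNA-seq quality control found the intended genetic changes in the sorted EYFP+ cells. Values below are normalized counts, that is counts scaled to a library of average effective size. Lats1 averaged 5847 ± 152 normalized counts (SD, n = 3) in control, 2116 ± 207 in the libraries labelled LATS1/2-KO and 1870.4 ± 176 in those labelled LATS1/2-Sox9-KO, and fell in both comparisons with control (log2 fold change -1.47 and -1.64). Lats2 went the other way, with 1041 ± 177, 1471 ± 236 and 1592 ± 359 normalized counts. Its log2 fold change was 0.50 (SE 0.20, edgeR adjusted p = 0.0566) in LATS1/2-KO, past the threshold in 7 of 18 alternative analyses, and 0.61 (edgeR adjusted p = 0.0237) in LATS1/2-Sox9-KO, lost in 4 of 18, among them without control replicate 1 (0.61) or 2 (0.49) or LATS1/2-Sox9-KO replicate 1 (0.46). Sox9 averaged 21598 ± 1683 normalized counts in control, 9715 ± 2620.1 in LATS1/2-KO and 7343 ± 1281 in LATS1/2-Sox9-KO, and the last 2 groups were not separated (log2 fold change -0.40, edgeR adjusted p = 0.247). The counts sum all exons of a gene, so transcripts that lost only the floxed exons are still counted, and the floxed exons were not counted separately here. Groups are therefore named by their labels throughout.

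In Hedgehog signaling, a secreted ligand such as Indian hedgehog (Ihh) binds the receptor Ptch1, which otherwise holds the membrane protein Smo inactive. Active Smo gathers in the primary cilium and releases the zinc-finger factors Gli2 and Gli3 from their inhibitor Sufu, and Gli1, Ptch1 and Hhip are themselves transcribed in response, so their RNA is widely read as a measure of pathway output. In the mammary gland, much of the known Hedgehog response lies in the stroma, and Gli3 in its repressor form has a role in embryonic mammary development.

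Upstream sequences are shown for 3 members whose RNA differed between genotypes, Hhip, which had no counts in control, and Smo and Sufu, the most abundant members in control. Each is the 250 bases before the RefSeq start on GRCm38.p6, 5′ to 3′ on the strand of the gene, and capitals mark a match to a searched motif.
Hhip, chr8:80058009-80058258, minus strand: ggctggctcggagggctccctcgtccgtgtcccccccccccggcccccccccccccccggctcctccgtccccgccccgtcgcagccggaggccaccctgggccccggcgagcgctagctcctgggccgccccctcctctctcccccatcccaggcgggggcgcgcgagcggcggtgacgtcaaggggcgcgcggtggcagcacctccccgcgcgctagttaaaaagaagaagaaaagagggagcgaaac
Smo, chr6:29735247-29735496, plus strand: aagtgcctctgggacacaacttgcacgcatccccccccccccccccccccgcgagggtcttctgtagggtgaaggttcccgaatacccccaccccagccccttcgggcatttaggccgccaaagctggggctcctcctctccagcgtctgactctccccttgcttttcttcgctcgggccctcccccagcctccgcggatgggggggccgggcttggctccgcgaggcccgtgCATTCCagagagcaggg
Sufu, chr19:46396646-46396895, plus strand: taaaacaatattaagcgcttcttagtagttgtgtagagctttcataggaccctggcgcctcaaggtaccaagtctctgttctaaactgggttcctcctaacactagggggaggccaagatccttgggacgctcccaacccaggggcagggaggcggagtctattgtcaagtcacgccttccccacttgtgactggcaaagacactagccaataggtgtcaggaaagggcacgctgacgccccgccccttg
Promoters of 8 of the 9 members were matched in the RefSeq table, all except Gli1. Windows of 300 bases, which add the first 50 bases of the transcript, were searched on both strands for the GLI motif GACCACCCA, for ACCACCC, which lies within it, and for CATTCC, the core of the TEAD motif bound by the partners of YAP and TAZ. GACCACCCA was in none of the 8 windows and in 0.253% of all 32851 promoters. ACCACCC was in the Gli2 window alone, on the reverse strand at position -205 from the start, and in 4.61% of all promoters. CATTCC was in the Smo window alone, at position -17, and in 14.7% of all promoters. GC content of the 250 bases ran from 54% in Sufu, with 8 CpG dinucleotides, to 78.4% in Ptch1, with 41.

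Members that differed from control were counted by direction, beside the same shares of all tested genes. A gene was called where its change exceeded 2-fold with an adjusted p of at most 0.05, from a quasi-likelihood test in edgeR adjusted over all tested genes by the Benjamini-Hochberg method. In the libraries labelled LATS1/2-KO, 1 member was called higher (Hhip) and 2 were called lower (Gli1 and Sufu), beside 17% of all tested genes called higher and 17.5% called lower. On the adjusted p alone, 1 member was higher and 4 were lower, Gli3 and Smo being the additions, against 28.6% and 27% of all tested genes. In the libraries labelled LATS1/2-Sox9-KO, 1 member was called higher (Hhip) and 5 were called lower (Gli1, Gli3, Smo, Sufu and Gas1), beside 17.8% and 19.6% of all tested genes. Ptch1 joined the lower members on the adjusted p alone, making 6 lower and 1 higher, against 28.6% and 29.3% of all tested genes. The libraries did not overlap with control for 1 higher and 4 lower members in LATS1/2-KO, against 31.3% and 30.3% of all tested genes, and for 1 higher and 6 lower members in LATS1/2-Sox9-KO, against 34.9% and 33.8%. Hhip and Gli1 are in all of these counts and passed the filter on low counts only through the groups where they were high, so they cannot be read against the shares. Among the other 7 members, 0 were higher by any of these measures. In LATS1/2-KO 1 of the 7 was called lower, near the 17.5% share of all tested genes. There 3 were lower on the adjusted p or without overlap. In LATS1/2-Sox9-KO 4 were called lower, and 5 were lower on the adjusted p or without overlap. The median log2 fold change of the members was -0.24 in LATS1/2-KO and -1.39 in LATS1/2-Sox9-KO, while that of all tested genes was 0.04 and 0.01. Both comparisons use the same 3 control libraries and are not independent of each other. Expression was measured in bulk, so fewer cells of a type and less RNA per cell cannot be told apart.

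**Figure D1:**
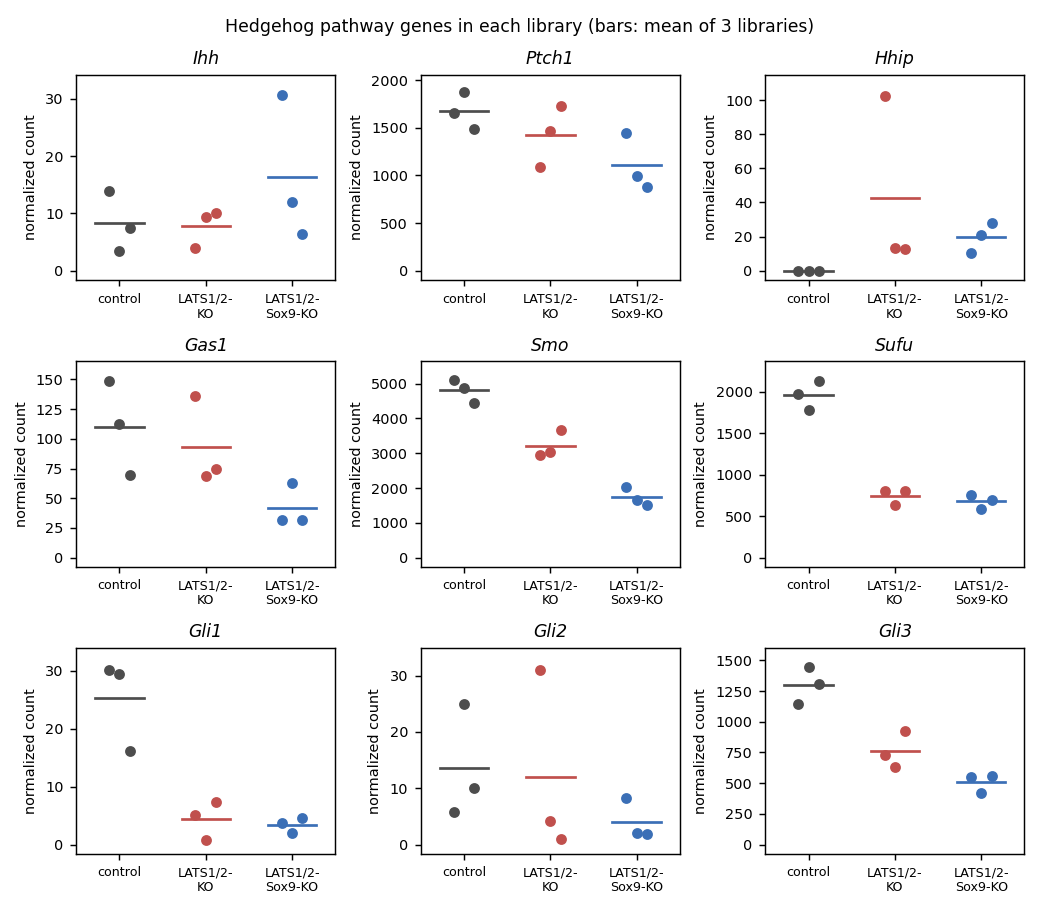
Normalized counts of the 9 Hedgehog genes (vertical axes, linear, each panel to its own scale) in the 9 libraries, grouped by genotype along the horizontal axis, with each point 1 library and each bar the group mean. Sufu is lower in all 6 libraries of the deletion genotypes than in any control library, Smo steps down across the 3 groups, and Hhip is at 0 in the 3 control libraries only.

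Among the ligands, Ihh was near the limit of detection. The control libraries held 13.9, 3.4 and 7.5 normalized counts of Ihh, those labelled LATS1/2-KO 4.0, 9.3 and 10.03, and those labelled LATS1/2-Sox9-KO 30.6, 11.96 and 6.4. The groups overlapped, and only 1 control library, 1 LATS1/2-KO library and 2 LATS1/2-Sox9-KO libraries reached the 0.180 CPM (counts relative to library size) used by the filter. The log2 fold change against control was -0.08 in LATS1/2-KO (95% interval -1.87 to 1.72) and 0.97 in LATS1/2-Sox9-KO (95% interval -0.77 to 2.72). Neither interval excluded no change, and both were wide, the cause of which was not tested.

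Ptch1, the receptor and a standard target of the pathway, was retained in all libraries. It held 1657, 1874.5 and 1482 normalized counts in control, 1087, 1462 and 1729 in LATS1/2-KO, and 1443, 989.5 and 881.7 in LATS1/2-Sox9-KO. The LATS1/2-KO values overlapped those of control, with a log2 fold change of -0.23 (95% interval -0.72 to 0.26, edgeR adjusted p = 0.402). All 3 LATS1/2-Sox9-KO values lay below all control values, with a log2 fold change of -0.60 (SE 0.22, edgeR adjusted p = 0.0391), short of 2-fold. That result passed in 11 of 18 alternative analyses and was lost in the test against 2-fold itself, when the replicate number was fitted as a block (edgeR adjusted p = 0.0653) or when any 1 of control replicates 1 and 2, LATS1/2-KO replicate 2, or LATS1/2-Sox9-KO replicates 2 and 3 was left out (log2 fold changes -0.60, -0.51, -0.58, -0.51 and -0.45).

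Hhip, a membrane protein that binds Hedgehog ligands and limits the response, was detected only in the libraries labelled LATS1/2-KO or LATS1/2-Sox9-KO. Its reads numbered 0, 0 and 0 in control, 102, 16 and 14 in LATS1/2-KO, and 11, 21 and 31 in LATS1/2-Sox9-KO, or 102.3, 13.6 and 12.8, then 10.2, 20.9 and 28.2 normalized counts. LATS1/2-KO replicate 1 stood apart from the other 5 libraries that held reads. Against a floor of 3 counts per control library, Hhip was at least 12.1-fold higher in LATS1/2-KO and at least 5.59-fold higher in LATS1/2-Sox9-KO (edgeR adjusted p = 0.00356 and 0.00792). In a calculation added after the values were seen, the first bound fell to 3.72-fold without LATS1/2-KO replicate 1, below the second. Hhip passed the filter only through the deletion genotypes. Requiring 10 counts in every library removed it from the test.

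Gas1, a membrane protein that helps present ligand to Ptch1, was lower in LATS1/2-Sox9-KO. It held 148.5, 112.3 and 69.7 normalized counts in control, 136.4, 68.6 and 74.8 in LATS1/2-KO, and 31.6, 62.8 and 31.9 in LATS1/2-Sox9-KO. The first 2 groups overlapped, with a log2 fold change of -0.24 (95% interval -1.20 to 0.71). The LATS1/2-Sox9-KO values all lay below the control values, with a log2 fold change of -1.39 (SE 0.44, edgeR adjusted p = 0.0210). Leaving out control replicate 1 or 2, or LATS1/2-Sox9-KO replicate 1 or 3, gave -1.11, -1.38, -1.20 and -1.21, each past the threshold no longer.

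Smo, the signal transducer, was the most abundant member and fell stepwise. It held 5092, 4888 and 4454 normalized counts in control, 2942, 3042 and 3666 in LATS1/2-KO, and 2025, 1645 and 1525 in LATS1/2-Sox9-KO. No library of any group overlapped another group. The log2 fold change against control was -0.58 (SE 0.14, edgeR adjusted p = 0.00457) in LATS1/2-KO, under 2-fold, and -1.47 (SE 0.14, edgeR adjusted p = 1.39e-05) in LATS1/2-Sox9-KO. Sufu, the inhibitor that holds Gli proteins in the cytoplasm, fell to a similar level in both deletion genotypes. It held 1972, 1785 and 2134 normalized counts in control, 798.3, 631.2 and 804.4 in LATS1/2-KO, and 753.8, 583.9 and 697.7 in LATS1/2-Sox9-KO. Against control its log2 fold change was -1.40 (SE 0.15, edgeR adjusted p = 4.91e-05) and -1.53 (SE 0.16, edgeR adjusted p = 2.25e-05), and it was called in all 18 alternative analyses of both comparisons.

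The 3 Gli factors differed in level, and Gli1 and Gli3 were lower in both groups labelled as deletions than in control. Gli1, an activator whose transcription responds to the pathway, had 26, 26 and 13 reads in control, 5, 1 and 8 in LATS1/2-KO, and 4, 2 and 5 in LATS1/2-Sox9-KO. Its normalized counts were 30.2, 29.5 and 16.2, then 5.0, 0.85 and 7.3, then 3.7, 2.0 and 4.6, with every library of the deletion genotypes below every control library. The log2 fold change was -2.51 (SE 0.75, edgeR adjusted p = 0.0162) in LATS1/2-KO and -2.84 (SE 0.77, edgeR adjusted p = 0.00932) in LATS1/2-Sox9-KO. Gli1 passed the filter only through the control libraries, and its LATS1/2-KO call was lost without control replicate 1 or 2 (log2 fold change -2.36 and -2.38). It shares 62 exonic bases with Arhgap9 on the opposite strand, a gene with 23 to 69 counts per library, and whether the counting separated strands is not settled, since the methods name the same strand while the library kit does not mark strand.

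Gli3, which acts mainly as a repressor in the absence of ligand, was the most abundant Gli gene. It held 1148, 1442 and 1307 normalized counts in control, 727.1, 630.4 and 924.8 in LATS1/2-KO, and 546.8, 417.5 and 558.4 in LATS1/2-Sox9-KO, and the 3 groups did not overlap. Its log2 fold change was -0.77 (SE 0.19, edgeR adjusted p = 0.00560) in LATS1/2-KO, under 2-fold, and -1.36 (SE 0.19, edgeR adjusted p = 0.000179) in LATS1/2-Sox9-KO. Gli2, the main activator in many tissues, was scarce and erratic, with 5.8, 24.9 and 9.96 normalized counts in control, 31.1, 4.2 and 0.91 in LATS1/2-KO, and 8.4, 2.0 and 1.8 in LATS1/2-Sox9-KO. The groups overlapped, and the log2 fold changes of -0.19 (95% interval -2.63 to 2.26) and -1.71 (95% interval -4.34 to 0.92) did not pass the test.

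**Figure D2:**
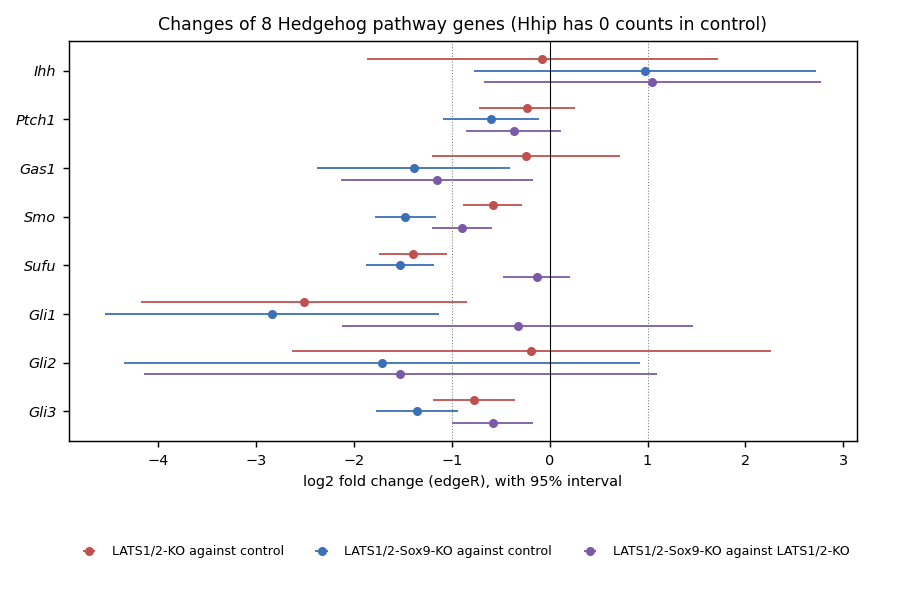
Log2 fold change (horizontal axis) of 8 members in rows, each with its 95% interval from the edgeR fit, with 1 colour for each of the 3 comparisons and dotted lines at a 2-fold change. Sufu lies at -1.40 and -1.53 in the comparisons with control, Smo moves from -0.58 to -1.47, and Hhip is not drawn because its control libraries are at 0.

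Between the deletion genotypes, Smo was the only member past the adjusted p. Its level in LATS1/2-Sox9-KO was 53.8% of that in LATS1/2-KO (log2 fold change -0.89, SE 0.14, edgeR adjusted p = 0.00823), while 3.2% of all tested genes were higher and 3.35% lower on the adjusted p alone. Without LATS1/2-Sox9-KO replicate 2 its log2 fold change was -0.83, with an edgeR adjusted p of 0.0507. No member was called past 2-fold, beside 1.54% of tested genes called higher and 2.14% called lower. By edgeR 3 members had an unadjusted p under 0.05, and by DESeq2 2 members passed the adjusted p and 0 were called. Shares of all tested genes at an unadjusted p, or on DESeq2's adjusted p alone, were not computed. These counts therefore cannot be read as a result about the members. Gli3 had a log2 fold change of -0.58 (edgeR adjusted p = 0.0979, DESeq2 adjusted p = 0.0483) and Gas1 of -1.15 (edgeR adjusted p = 0.155), and in both the libraries of the 2 genotypes did not overlap. Non-overlapping libraries that were lower made up 3 of the 9 members and 13.3% of all tested genes, and higher ones 0 members and 14.6% of all tested genes. Sufu differed by -0.13 (95% interval -0.48 to 0.21), Ptch1 by -0.37 (95% interval -0.86 to 0.12) and Gli1 by -0.33 (95% interval -2.12 to 1.47) on the log2 scale. Sox9 RNA was not separated between these genotypes either, as given above.

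Per length of exon, Smo was the highest member in every group and Gli1, Gli2, Ihh and Hhip were the lowest. In CPM per kilobase, Smo led in control with a level of 15.9 ± 1.08 (SD, n = 3), followed by Sufu at 4.74 ± 0.423, Gli3 at 2.52 ± 0.285, Ptch1 at 2.19 ± 0.257 and Gas1 at 0.691 ± 0.247. The libraries of Gli3 and Ptch1 overlapped. Gli1 at 0.0940, Ihh at 0.0504 and Gli2 at 0.0367 followed with overlapping neighbours, and Hhip was at 0. In LATS1/2-KO the level of Smo was 10.6, and Ptch1 at 1.87, Sufu at 1.80 and Gli3 at 1.47 overlapped their neighbours in that order. In LATS1/2-Sox9-KO the level of Smo was 5.72, Sufu at 1.64 and Ptch1 at 1.45 overlapped, and Gli3 at 0.983 lay below both. Gli1 was among the lowest in both deletion genotypes, at 0.0163 and 0.0127.

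**Figure D3:**
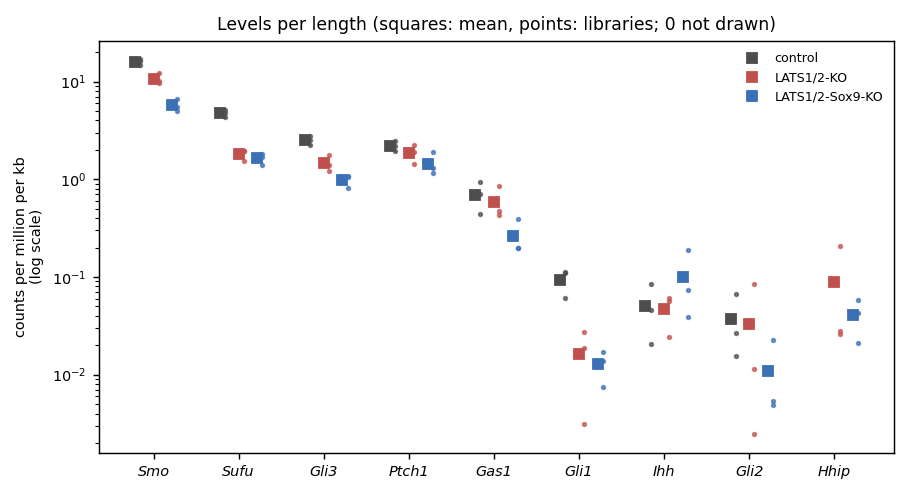
Level of each member in CPM per kilobase of exon (vertical axis, logarithmic) in the 3 genotypes, with squares for group means and small points for libraries, values of 0 not drawn. Smo is highest in every genotype with means of 15.9, 10.6 and 5.72. The means of Gas1, Gli1, Gli2, Ihh and Hhip lie below 1 in every genotype, those of Gas1 being the highest among them.

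The rest of the pathway was followed in lists of its other genes by role. Together these held 44 genes beside the members, of which 38 were tested. In LATS1/2-KO, 6 were called higher and 6 lower, and 7 rose and 17 fell on the adjusted p alone, with a median log2 fold change of -0.40. In LATS1/2-Sox9-KO, 6 were called higher and 8 lower, and 6 rose and 20 fell on the adjusted p alone, with a median of -0.56. The shares of all tested genes given above apply here also.

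For ligands and the proteins that modify and release them, the member Ihh included, 8 of 10 genes were tested. In LATS1/2-KO 1 was called, Scube3, a secreted protein of a family that carries ligand away from the producing cell. Scube3 held 249.4, 303.9 and 49.8 normalized counts in control, 4489, 1878 and 3085 in LATS1/2-KO, and 452.1, 404.6 and 316.1 in LATS1/2-Sox9-KO. Its log2 fold change was 3.97 (SE 0.58, edgeR adjusted p = 0.000327) in LATS1/2-KO and 0.96 (edgeR adjusted p = 0.153) in LATS1/2-Sox9-KO, and -3.01 (SE 0.55, edgeR adjusted p = 0.0166) between the deletion genotypes. That last call was lost without LATS1/2-KO replicate 3 (-3.02) or any of LATS1/2-Sox9-KO replicates 1, 2 and 3 (-3.10, -3.01 and -2.86), the direction holding in each.

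Among receptors, co-receptors and surface antagonists, 10 of 11 were tested. In LATS1/2-KO 2 were called higher and 2 lower, and in LATS1/2-Sox9-KO 2 were called higher and 4 lower, Hhip, Smo and Gas1 included. Cdon, a co-receptor that promotes signaling, averaged 7499 ± 974 normalized counts in control, 3377 ± 125 in LATS1/2-KO and 1576 ± 558 in LATS1/2-Sox9-KO, with log2 fold changes of -1.15 (edgeR adjusted p = 0.00109) and -2.25 (edgeR adjusted p = 1.67e-05). Between the deletion genotypes Cdon fell by 1.10 on the log2 scale (edgeR adjusted p = 0.0179). Gpc3, a glypican that competes for ligand, averaged 15.6 ± 3.72, 122 ± 41.9 and 34.6 ± 11.8 normalized counts, with a log2 fold change of 2.96 in LATS1/2-KO (edgeR adjusted p = 0.000247), 1.14 in LATS1/2-Sox9-KO (edgeR adjusted p = 0.0391) and -1.82 between them (edgeR adjusted p = 0.0280). The Cdon and Gpc3 calls between deletion genotypes were each lost without LATS1/2-KO replicate 3 (-1.13 and -1.51) or LATS1/2-Sox9-KO replicates 2 (-0.93 and -2.09) or 3 (-0.94 and -1.72), and that of Gpc3 also without LATS1/2-KO replicate 2 (-1.88), without LATS1/2-Sox9-KO replicate 1 (-1.61) or with the replicate block (-1.82). The Gpc3 call in LATS1/2-Sox9-KO was lost without control replicate 2 (1.09) or 3 (1.01), LATS1/2-KO replicate 2 (1.15), or LATS1/2-Sox9-KO replicate 2 (0.86) or 3 (1.22), and with the replicate block (1.10).

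All 23 genes for transducers and inhibitors between Smo and the Gli proteins, the member Sufu included, were tested. In LATS1/2-KO 3 were called higher and 5 lower, and in LATS1/2-Sox9-KO 3 were called higher and 7 lower. On the adjusted p alone 15 and 17 were lower. Gpr161, a ciliary receptor that represses the pathway through cyclic AMP, averaged 96.2 ± 34.6 normalized counts in control, 807.3 ± 191 in LATS1/2-KO and 1349 ± 129 in LATS1/2-Sox9-KO (log2 fold changes 3.07 and 3.81, edgeR adjusted p = 1.5e-05 and 3.91e-06). Efcab7, which tethers a ciliary complex that acts with Smo, and Spopl, an adaptor of a ubiquitin ligase, were also called higher in both (log2 fold changes 1.44 and 1.48, then 1.49 and 1.31). Btrc, the adaptor that directs Gli proteins to processing or turnover, fell from 2938 ± 219.7 to 821.5 ± 222 and 913.5 ± 36.1 normalized counts (log2 fold changes -1.84 and -1.69). Prkaca, a catalytic subunit of protein kinase A, fell from 3358 ± 169 to 1314 ± 136 and 1252 ± 209 (log2 fold changes -1.35 and -1.42), and Evc2, of the ciliary complex that acts with Smo, had log2 fold changes of -1.42 and -1.41. Ulk3, a kinase of Gli proteins, was called lower in LATS1/2-KO (-1.09), and Kif7, a ciliary kinesin, and Stk36, the fused kinase, were called lower in LATS1/2-Sox9-KO (-1.56 and -1.21). Between the deletion genotypes 1 of the 23 passed the adjusted p, Prkar1a, a regulatory subunit of protein kinase A, named after its value was seen (log2 fold change -0.33, edgeR adjusted p = 0.0480).

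Of 9 Gli-type zinc-finger genes, 6 were tested, the members included. Glis2, a Gli-related factor, averaged 1321 ± 564 normalized counts in control, 3585 ± 1025 in LATS1/2-KO and 3078 ± 752 in LATS1/2-Sox9-KO (log2 fold changes 1.44 and 1.22, edgeR adjusted p = 0.00493 and 0.0108). Glis3 averaged 1188 ± 104, 2232 ± 323 and 2378 ± 116 (log2 fold changes 0.91 and 1.00), the first under 2-fold. Gli1 and Gli3 moved the other way, as given above.

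**Figure D4:**
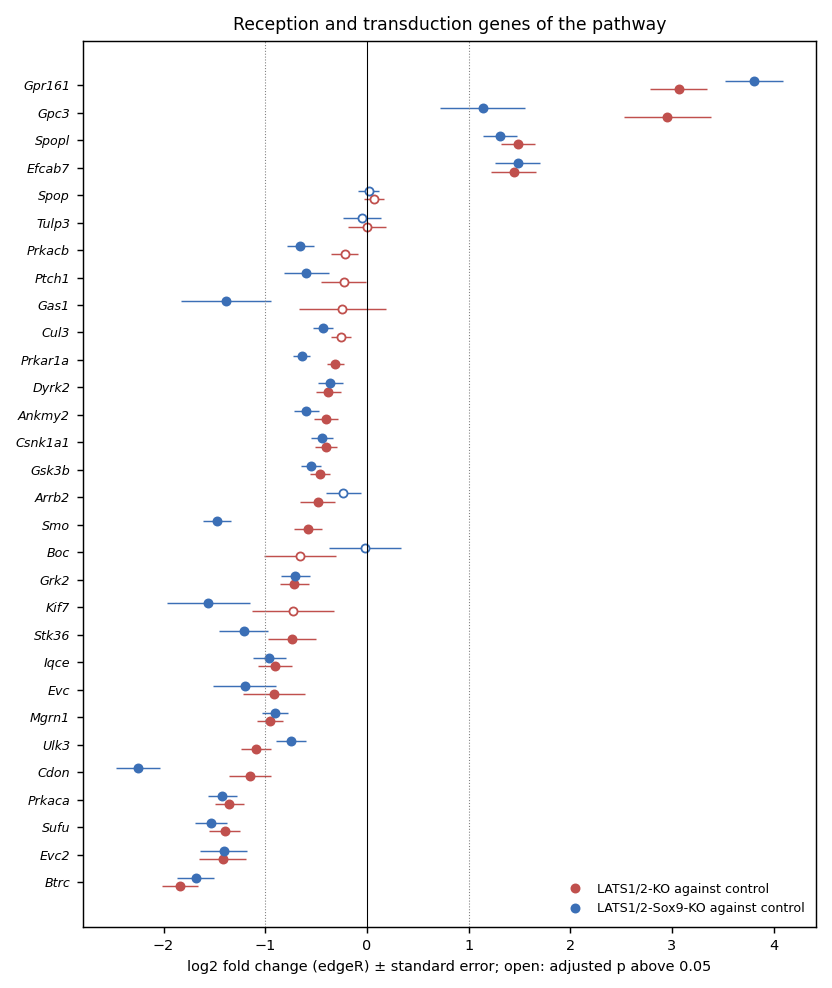
Log2 fold change with its standard error (horizontal axis) of reception and transduction genes, 1 gene per row, in the comparisons of both deletion genotypes with control, with some listed genes not drawn. Open points have an adjusted p above 0.05, most filled points lie below 0, and Gpr161 stands apart at 3.07 and 3.81.

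Of the core targets described above, which are induced in most responding tissues, Hhip was called higher and Gli1 lower in both comparisons with control, and Ptch1 was not called in either. Hhip passed the filter on low counts only through the deletion genotypes and Gli1 only through control. Of 20 genes described as targets in some tissues only, 14 were tested, and 6 were called higher and 2 lower in LATS1/2-KO, 5 higher and 2 lower in LATS1/2-Sox9-KO. Of all tested genes 17% and 17.5%, then 17.8% and 19.6%, were called higher and lower. Foxf1 and Mycn stayed under the filter's 0.180 CPM in every control library and so passed it only through the groups where they were high. Both are among the genes called higher in each comparison, so those counts cannot be read against the shares called higher. Foxf1, a forkhead factor of mesenchyme, held 2.3, 6.8 and 0 normalized counts in control, 146.4, 144.9 and 172.4 in LATS1/2-KO and 156.9, 154.4 and 142.1 in LATS1/2-Sox9-KO (log2 fold changes 5.58 and 5.55, or 6.87 and 6.84 without control replicate 2). Bmp4, a bone morphogenetic protein, averaged 198 ± 154, 2201 ± 713 and 6644 ± 736 (log2 fold changes 3.48 and 5.07, or 4.29 and 5.91 without control replicate 3). Ccnd2, a D-type cyclin, averaged 39.2 ± 1.17, 779.9 ± 832 and 1143 ± 103 (log2 fold changes 4.31 and 4.86), and its highest LATS1/2-KO value, 1737, was in replicate 1, without which the LATS1/2-KO log2 fold change was 2.94. Mycn and the cyclin partner Cdk6 were called higher in both (3.61 and 1.87, then 1.45 and 1.77), the Wnt antagonist Sfrp1 in LATS1/2-KO alone (1.13, and 0.47 in LATS1/2-Sox9-KO). The Mycn call in LATS1/2-Sox9-KO was lost without control replicate 1 (1.78) or 3 (1.56), LATS1/2-KO replicate 2 (1.89) or 3 (1.88), or LATS1/2-Sox9-KO replicate 1 (1.36) or 3 (2.02), with the replicate block (1.79) and by DESeq2 (1.89). The Notch ligand Jag2 and the actin regulator Mtss1 fell (-1.30 and -2.30, then -2.22 and -2.89). All of these genes have other regulators.

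Marker genes of other cells were counted beside the members. All 10 luminal markers had counts in every library, with Krt18 the most abundant, at 239706 to 257940.1 normalized counts in control, 384348 to 428714 in LATS1/2-KO and 638918 to 789495 in LATS1/2-Sox9-KO. Luminal markers moved both ways, with 6 of 10 called lower in LATS1/2-KO, where 2 were higher on the adjusted p alone, and 6 lower and 2 higher in LATS1/2-Sox9-KO, and median log2 fold changes of -1.71 and -1.83. Of all tested genes 17% were called higher and 17.5% lower in LATS1/2-KO, where 28.6% were higher on the adjusted p alone. The shares called higher and lower in LATS1/2-Sox9-KO were 17.8% and 19.6%. Krt8 averaged 185913 normalized counts in control, 278133 in LATS1/2-KO and 445703 in LATS1/2-Sox9-KO. The progesterone receptor gene Pgr averaged 22685 normalized counts in control, 379 in LATS1/2-KO and 34.7 in LATS1/2-Sox9-KO, and the prolactin receptor gene Prlr 176299.6, 6303 and 2238. The estrogen receptor gene Esr1 averaged 9731, 862 and 764. The part of this shift in the member values was not tested. Fibroblasts are a known site of Hedgehog response, and all 9 fibroblast markers had counts in every library. Their summed normalized counts were 2373, 4222 and 9358 in control, 8594, 2471 and 2949 in LATS1/2-KO, and 2462, 3239 and 6189 in LATS1/2-Sox9-KO. Dcn, the most abundant of them in control, held 1626, 3291 and 8162 in control, 1319.9, 288.9 and 1161 in LATS1/2-KO, and 27.8, 119.6 and 325.2 in LATS1/2-Sox9-KO. LATS1/2-KO replicate 1 had the highest sum of its group and also the highest Hhip, Gli2, Gas1 and Scube3 of that group, and the lowest Smo and Ptch1, with Gli1 between the others. Its summed immune markers, 1535 normalized counts, were also the highest of all libraries. Control replicate 3 had the highest sum of all, with 0 reads of Hhip, and was the lowest control library for Gli1 and Gas1. In LATS1/2-KO 4 of the 9 fibroblast markers were called higher (Lum, Col1a1, Col3a1 and Thy1), and in LATS1/2-Sox9-KO 3 were called higher and 2 lower (Pdgfra and Dcn). The shares of all tested genes given for the luminal markers apply here also. Without LATS1/2-KO replicate 1, the Hhip comparison between the deletion genotypes turned from -1.10 to 0.58 and that of Gli2 from -1.52 to 0.62, none of the 4 values past the threshold. The part of fibroblast RNA in these member values was not tested.

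**Figure D5:**
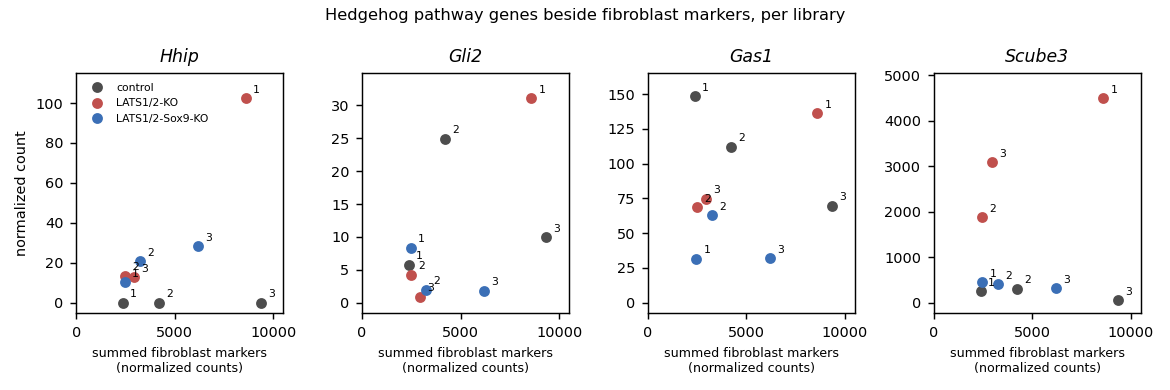
Normalized counts of Hhip, Gli2, Gas1 and Scube3 (vertical axes) against the summed normalized counts of the 9 fibroblast markers (horizontal axes), with 1 point per library coloured by genotype and numbered by replicate. LATS1/2-KO replicate 1, with a sum of 8594, holds the most Hhip, 102.3 normalized counts, while control replicate 3, with the highest sum of 9358, holds none.

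The genes whose pattern over the 9 libraries was most like that of Gli1, among 12341 genes searched, were Ttc36 (Pearson r = 0.985), Tecpr2 (r = 0.982) and C1qtnf12 (r = 0.980). Like Gli1, their averages were higher in control than in both deletion genotypes, with Ttc36 at 154, 28.5 and 24.2 normalized counts. For Ptch1 they were Tmco4 (r = 0.949), Cnst (r = 0.948) and Wdr33 (r = 0.945), with Tmco4 at 1157, 928.5 and 673 normalized counts. These values describe 9 libraries in 3 groups, with lower total counts in every control library than in any library of the deletion genotypes. The part of each r that reflects the difference between groups was not tested.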

How the data were processed

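Bulk RNA-seq of sorted EYFP+ mammary cells was analysed in 9 libraries, 3 per genotype. The authors deposited raw read counts per gene. Per the submitters' notes and methods, reads were aligned to mm10 with STAR 2.6.0c and uniquely aligned pairs were counted with featureCounts (Subread 1.6.2). No column of the deposited count table was left unmapped.

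Here edgeR 4.0.16 in R 4.3.3 (filterByExpr, TMM, robust quasi-likelihood fit) was fitted once to all 9 libraries and 19357 genes, with Benjamini-Hochberg adjustment over them and the study's thresholds of 2-fold and 0.05. DESeq2 1.42.0, other normalizations, filters and fits, and leaving out each library were tried as alternatives. The fit was tested on simulated data. An exact permutation test of 3 against 3 libraries cannot go below p = 0.1 and was not used. Members were named in full, listed genes where called (up to 6 per list and direction), and likeness by correlation over genes averaging at least 100 normalized counts in a group. The members and lists were chosen with earlier results of these data known. Counting error is not separated from biological spread. Some listed genes are counted in their lists and not reported here by name.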

Additional observations from a re-analysis of the deposited data

How the results depend on the processing

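The 18 alternatives shifted the median of all genes by less than 0.1 on the log2 scale, and counts of member calls mostly stayed. With at least 10 counts in every library, members called in LATS1/2-KO were 0 higher and 1 lower, and in LATS1/2-Sox9-KO 0 higher. Fitting only the compared groups left 0 higher in LATS1/2-Sox9-KO, because Hhip missed the filter. Leaving out 1 library gave 1 to 2 members called lower in LATS1/2-KO.

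A test against 2-fold itself (glmTreat) called 1 member lower in LATS1/2-KO. Over all genes it called 1951 higher and 2033 lower in LATS1/2-KO, 2231 and 2457 in LATS1/2-Sox9-KO, and 18 and 15 between the deletion genotypes, against 3293, 3381, 3439, 3787, 299 and 414. Of the other pathway genes it called 3 lower in LATS1/2-KO, 3 higher and 4 lower in LATS1/2-Sox9-KO, and 0 lower between the deletion genotypes. Under it the LATS1/2-KO changes of Gli1 (-2.51), Gli3 (-0.77) and Smo (-0.58), those of Ptch1 (-0.60) and Gas1 (-1.39) in LATS1/2-Sox9-KO, and that of Smo between the deletion genotypes (-0.89) did not pass. DESeq2 called 509 genes higher and 750.0 lower between the deletion genotypes, and Gli3 passed there (-0.57). Leaving out 1 library gave 109 to 479 higher and 74 to 556 lower there, and 0 to 3 other pathway genes lower. The cause was not tested.

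Leaving out 1 library gave -3.09 to -2.02 for Gli1 in LATS1/2-KO, -0.82 to -0.45 for Ptch1 and -1.77 to -1.11 for Gas1 in LATS1/2-Sox9-KO, and -0.99 to -0.79 for Smo between the deletion genotypes. Values that missed the threshold changed sign in some of these fits. In LATS1/2-KO, Gli2 ran from -2.32 to 0.60 (0.21 and 0.37 without LATS1/2-KO replicates 2 and 3), Ihh from -0.45 to 0.53 (0.23 without LATS1/2-KO replicate 1) and Gas1 from -0.61 to 0.034. Between the deletion genotypes, Gli1 ran from -0.79 to 0.26, Gli2 from -2.54 to 0.62, Hhip from -1.54 to 0.58 and Lats2 from -0.036 to 0.29. With no filter, the calls of Scube3 between the deletion genotypes (-2.97) and of Gpc3 (1.18) and Mycn (1.91) in LATS1/2-Sox9-KO were lost.

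Deviations of libraries with the same number correlated at -0.0655, -0.00975 and -0.0657 between control and LATS1/2-KO, 0.0375, 0.0186 and 0.0202 between control and LATS1/2-Sox9-KO, and 0.105, 0.170 and -0.0322 between the deletion genotypes. In no comparison were all 3 above 0.1, so the numbers were not taken to pair samples. With the replicate number as a block, Ptch1 in LATS1/2-Sox9-KO (-0.60) no longer passed and Ihh in LATS1/2-KO turned to 0.16, and no other member call changed. Low counts limit Gli1, Gli2, Ihh and Hhip.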

Other observations

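The primary cilium, where Smo meets the Gli proteins, was covered by 37 genes of intraflagellar transport and the ciliary base, all tested. In LATS1/2-KO 3 were called higher, the transport genes Kif3a, Ift57 and Ift74 (log2 fold changes 1.18, 1.17 and 1.35), and 9 were called lower, led by Fuz (-2.33), Ift172 (-1.89), Cep164 (-1.69), Mks1 (-1.58), Inpp5e (-1.56) and Ift140 (-1.21). Of all tested genes 17% and 17.5% were called higher and lower there. The median of the 37 was -0.08. In LATS1/2-Sox9-KO 1 was called higher and 11 lower, with a median of -0.38, beside 17.8% and 19.6% of all tested genes. Between the deletion genotypes none was called and 6 were lower on edgeR's adjusted p alone, beside 3.35% of all tested genes. By library, Fuz, which helps build the cilium, held 1355.9, 1796 and 1837 normalized counts in control, 505.5, 265.2 and 218.9 in LATS1/2-KO, and 397.3, 292 and 245 in LATS1/2-Sox9-KO.

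Markers of further cell types were also present. Summed adipocyte markers were 273, 184 and 289 normalized counts in control, 484.4, 3497 and 1639 in LATS1/2-KO, and 86.3, 1207 and 1077.5 in LATS1/2-Sox9-KO, with Fabp4 the most abundant. Summed endothelial markers ran from 259 to 772.4, and summed immune markers from 336.5 to 1535, with Cd3e at 0 in every library. The pericyte sum was nearly all Notch3 and the Schwann sum nearly all Sox10, both also expressed in epithelium. Summed basal markers were 4085, 5306 and 4756 in control and at least 121881 in each library of the deletion genotypes, mostly Krt14. Of the 7 basal markers, 3 were called higher and 2 lower in LATS1/2-KO, and 3 higher and 3 lower in LATS1/2-Sox9-KO. Of all tested genes 17% and 17.5%, then 17.8% and 19.6%, were called higher and lower in these comparisons. Trp63 averaged 1553, 54.9 and 85.3 normalized counts and Myh11 645.7, 139 and 275 in control, LATS1/2-KO and LATS1/2-Sox9-KO.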
